A study of Mus musculus with 4 samples.

Results

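The kinesin and dynein motor genes of the mouse hippocampus, 73 genes read by 162 probe sets, are described here. They are the genes whose single symbol in the array's probe table starts with Kif, Kifc, Klc, Dync, Dynll, Dynlt, Dctn, Dnah or Dnaic and a number or subunit letter, out of 18194 genes and 45101 probe sets in all. A further 4 probe sets whose first symbol matched carried several symbols and were left out. The group was set by symbol, so it joins motors, their subunits, the dynein activator dynactin and a few kinesin relatives. The whole hippocampus of the left side was taken from wild-type mice, and total RNA of 4 samples, called biological replicates and numbered 11, 13, 15 and 17, was measured with 1 array each. They form a single group with no treatment, and strain, age and sex are not given in the labels. Wherever 4 values are given below, they stand in the order of samples 11, 13, 15 and 17.

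Kinesins and dyneins are ATP-driven motors that walk along microtubules. Most kinesins move towards the growing plus end, which in axons points away from the cell body, and carry vesicles, mitochondria and RNA outwards, whereas cytoplasmic dynein with its activator dynactin moves cargo back. Other kinesins build the mitotic spindle and divide the cell, and axonemal dyneins bend motile cilia such as those of ependymal cells. Neurons of the adult hippocampus are large, long-lived and no longer divide.

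All levels are log2 intensities, where a difference of 1 is a doubling, and all errors are SDs over the 4 samples (n = 4). With 4 arrays the precision is limited, and since no source says that each sample is a separate animal, p-values below measure only the spread between these samples, which may be technical. Each gene is represented by its probe set with the highest mean. Probe sets bind with different strength, so one gene's level is not set against another's. The classes are instead compared by how many members lay above one background limit of 6.97, the 95th percentile of 45 genes of liver, skin, muscle, testis and other tissues.

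Of markers for the tissue label, 10 of 10 neuronal and 10 of 12 hippocampal field markers were above background, against 37.5% of all genes. The field markers Prox1 and Grik4 were under it, with means of 5.76 and 6.40. With no other tissue in the series, these counts cannot tell hippocampus from other brain regions. Before the members are described, a difference between the arrays has to be given. The Gapdh transcript is read at several positions, and its 3' minus 5' difference was 0.62, 0.62, 2.64 and 3.79. For beta-actin the difference was 1.10, 1.25, 1.93 and 2.33. Samples 15 and 17 thus gave less 5' signal than samples 11 and 13 for both transcripts. Marker lists moved between samples too. The myelin list deviated from its own mean by -0.22, 0.41, -0.038 and -0.15 over 11 measured genes, and the choroid plexus list by -0.0015, 0.36, -0.14 and -0.22 over 8. Of these 8 only Ttr had a mean above background, with 7.36, 9.84, 6.86 and 6.54, so the choroid plexus shift rests largely on 1 gene.

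By their highest probe sets, most motors of cargo transport were detected, and most of those of cell division and cilia were not. A gene with more probe sets has more chances of a high one, and the classes differed in this. Cargo kinesins had up to 7 probe sets per gene, mitotic kinesins up to 4 and ciliary motors up to 2. Of the 73 genes, 32 lay above background, or 43.8%, against 37.5% of all genes on the array. The share was 13 of 17 for cargo kinesins, 2 of 3 for kinesin light chains, 8 of 9 for cytoplasmic dynein 1 and 6 of 6 for dynactin, which makes 29 of 35 for the transport classes together. It was 0 of 15 for mitotic kinesins, 2 of 18 for ciliary motors and 1 of 5 for the other kinesin genes. When each gene was given the median of its probe sets in place of the highest, with a limit of 6.89, the count of cargo kinesins was 7 of 17 and that of light chains 1 of 3. That of dynein 1 genes was then 8 of 9, of dynactin 5 of 6, of mitotic kinesins 0 of 15 and of ciliary motors 2 of 18, against 23.5% of all genes. As a description over different probe sets, on which no comparison rests, the median level was 8.40 in cargo kinesins, 9.73 in cytoplasmic dynein 1 and 9.15 in dynactin. In mitotic kinesins it was 4.19 and in ciliary motors 4.28, against 5.99 over all genes. With the lower limit of the 90th percentile, 6.19, the count of mitotic kinesins was 1 and that of all motors 36. With samples 15 and 17 left out, the counts of all 7 classes equalled those over 4 samples.

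**Figure D1:**
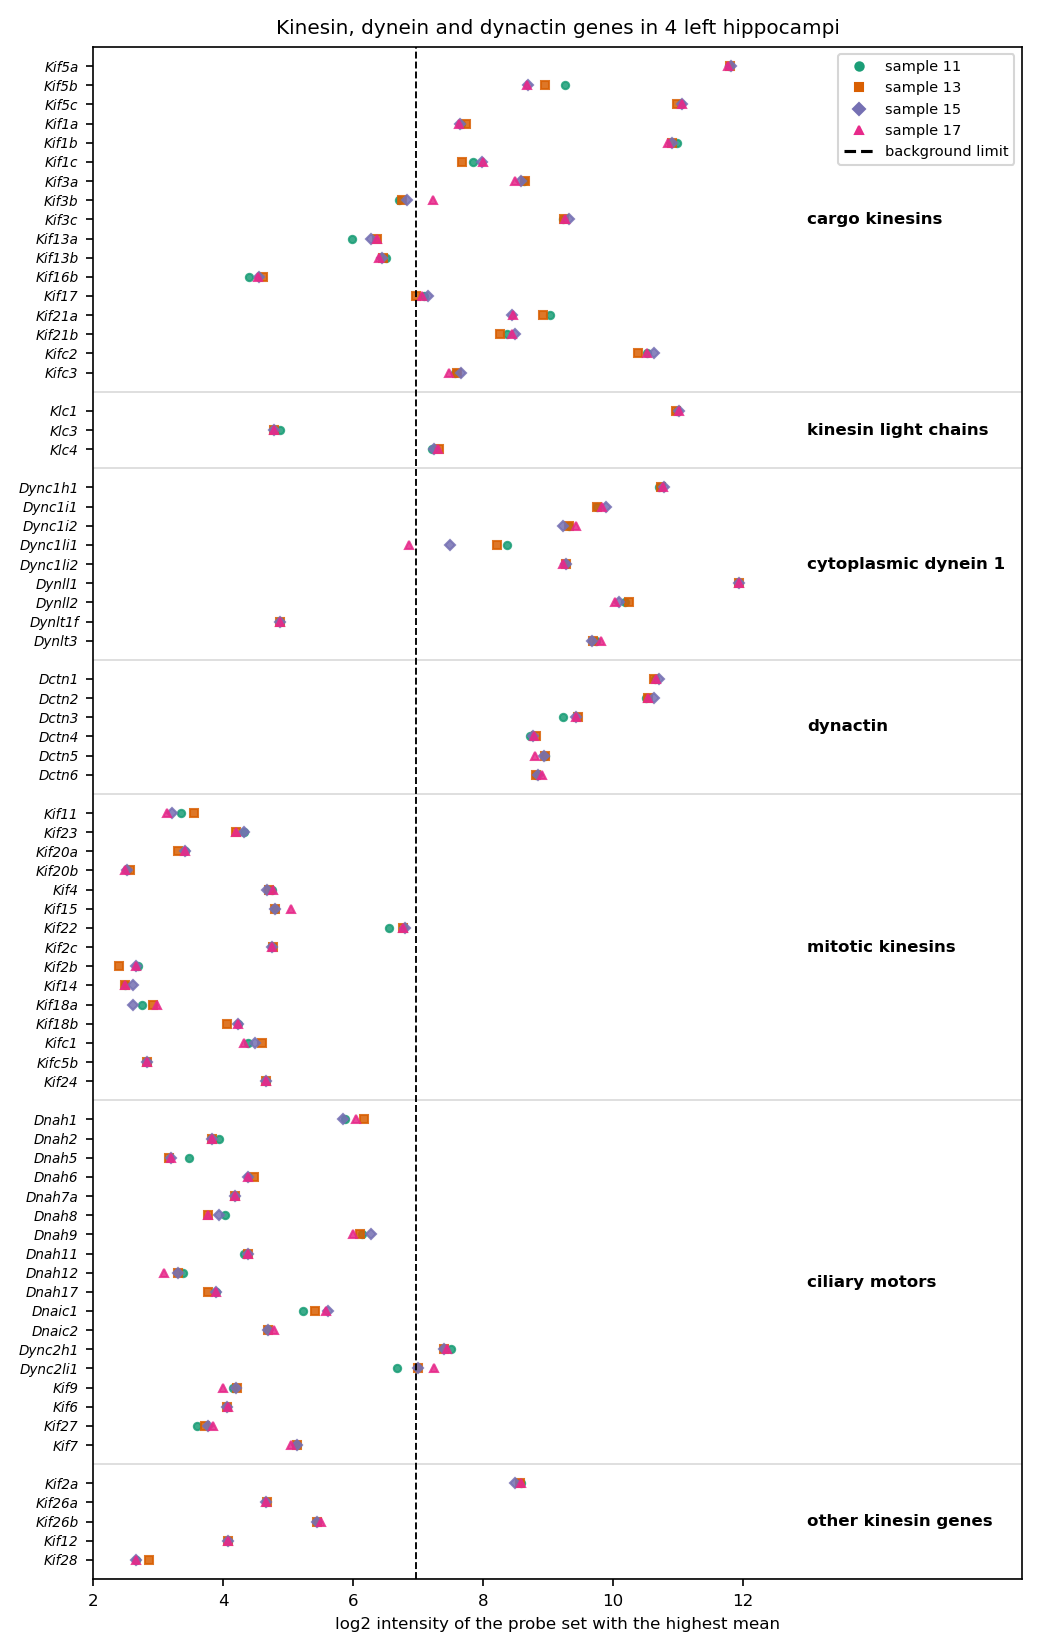
Level of each of the 73 motor genes in the 4 samples, as log2 intensity of the probe set with the highest mean, grouped by class, with the background limit of 6.97 as a dashed line. The points of a gene mostly overlap; Dync1li1 and Kif5b are spread out, all 6 dynactin genes lie right of the limit, and all 15 mitotic kinesins lie left of it.

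**Figure D2:**
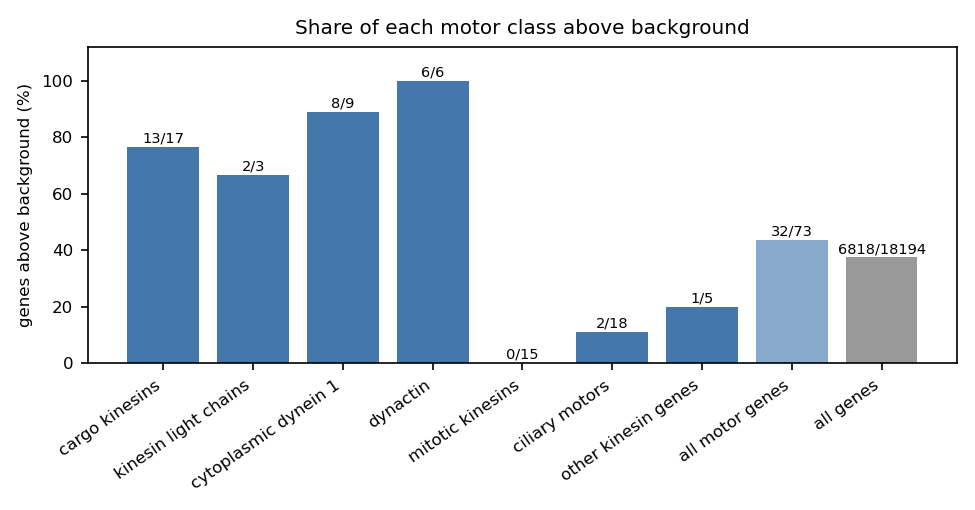
Share of the genes of each class with a mean level above the background limit, in percent, with the numbers above and measured over each bar. Dynactin reaches 6 of 6 and mitotic kinesins 0 of 15, beside 6818 of 18194 for all genes.

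Kinesin-1, the main motor of fast axonal transport, was detected in all of its heavy chains. The neuronal heavy chain Kif5a had levels of 11.80, 11.81, 11.82 and 11.78, a mean of 11.80 ± 0.017. Kif5c, also enriched in neurons, stood at 11.05, 10.997, 11.07 and 11.07 (11.05 ± 0.033). The 4 samples were within a few hundredths of each other for both genes. Kif5b, the heavy chain present in most cell types, stood at 9.26, 8.96, 8.70 and 8.69 (8.90 ± 0.27), highest in sample 11 and lower in both samples with little 5' signal. The light chain Klc1, which couples kinesin-1 to cargo, had levels of 10.996, 10.97, 11.02 and 11.02 (11.00 ± 0.021). Klc4 had 7.22, 7.33, 7.26 and 7.32 (7.28 ± 0.052), while Klc3 lay under background at 4.88, 4.79, 4.78 and 4.79 (4.81 ± 0.046).

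Kinesin-3 motors carry synaptic vesicle precursors and dense core vesicles. Kif1a, the motor of synaptic vesicle precursors, had levels of 7.67, 7.74, 7.65 and 7.64 (7.68 ± 0.047) by the probe set with the highest mean. Kif1b, which serves vesicles and mitochondria, had 10.98, 10.92, 10.92 and 10.86 (10.92 ± 0.051), and Kif1c had 7.85, 7.68, 7.99 and 8.005 (7.88 ± 0.15). By these probe sets all 3 genes stayed above background in every sample. The other probe set of Kif1a had nearly the same mean, 7.63, and was under the limit in sample 17 at 6.43. It has the higher mean when sample 15, sample 17 or both are left out, and the level of Kif1a is then 7.79, 8.02 and 8.47 in that order. Kif17, a dendritic motor of the kinesin-2 family, was close to the limit at 7.10, 6.97, 7.15 and 7.07 (7.07 ± 0.076). Kif3b, a subunit of heterotrimeric kinesin-2, was just under it with a mean of 6.88 ± 0.24 and values of 6.70, 6.75, 6.83 and 7.23, so that only sample 17 was above. Its partner Kif3a was above background with all of its 4 probe sets, whose means lay between 7.54 and 8.59.

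Kif21a and Kif21b are kinesin-4 motors that also restrain microtubule growth. Kif21a had levels of 9.04, 8.92, 8.46 and 8.46 (8.72 ± 0.31), with samples 15 and 17 under samples 11 and 13. Kif21b had 8.37, 8.27, 8.50 and 8.45 (8.40 ± 0.10), with the opposite order of these pairs. The remaining 4 cargo kinesins above background were Kif3a, Kif3c, Kifc2 and Kifc3, with SDs between 0.041 and 0.097. The endosomal motors Kif13a, Kif13b and Kif16b were under background, with means of 6.25, 6.46 and 4.53. These 7 genes lie outside the rule for named genes and are added to complete the class.

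Cytoplasmic dynein 1, the main motor towards the cell body, was read through its heavy, intermediate, light intermediate and light chains. The heavy chain Dync1h1, which holds the motor domain, had levels of 10.71, 10.74, 10.79 and 10.78 (10.76 ± 0.038). The intermediate chains Dync1i1 and Dync1i2, which link the motor to dynactin, had means of 9.81 ± 0.069 and 9.33 ± 0.080. Their values were 9.76, 9.76, 9.90 and 9.83 for Dync1i1 and 9.34, 9.34, 9.23 and 9.43 for Dync1i2. The widest span between samples in these 3 genes was 0.20, in Dync1i2. The light chain Dynll1, a hub protein also found outside dynein, had 11.93, 11.95, 11.95 and 11.95 (11.95 ± 0.0078), and Dynll2 had 10.19, 10.25, 10.09 and 10.04 (10.14 ± 0.098). Dynlt3 was also above background, and Dynlt1f, a member of a family of near-identical copies, held the value 4.88 in all 4 samples.

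The light intermediate chains, which bind cargo adaptors, differed in their spread. Dync1li1 had levels of 8.38, 8.22, 7.50 and 6.87, a mean of 7.74 ± 0.69 by its only probe set and a 2.84-fold span. Sample 17 fell under the background limit and samples 11 and 13 were well above it. Dync1li2 held 9.28 throughout except for 9.24 in sample 17 (9.27 ± 0.020). Dync1li1 was lower in both samples with the larger Gapdh 3' minus 5' difference, and the part of that difference in its spread was not tested.

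Dynactin was the steadiest class above background among those with more than 2 genes, with a median SD of 0.049, against 0.056 for the 32 motor genes and 0.082 for all genes above background. Dctn1, the large subunit that binds microtubules, had levels of 10.65, 10.64, 10.71 and 10.66 (10.67 ± 0.033). Dctn2, whose excess takes the complex apart, had 10.51, 10.55, 10.64 and 10.55 (10.56 ± 0.053). Both varied by under 0.15 between samples. Dctn3 had 9.23, 9.47, 9.43 and 9.43 (9.39 ± 0.11), with sample 11 lowest. The pointed end subunits Dctn4, Dctn5 and Dctn6 had means of 8.78 ± 0.035, 8.92 ± 0.073 and 8.85 ± 0.045. The values of Dctn4 were 8.73, 8.82, 8.78 and 8.78. Those of Dctn5 were 8.96, 8.96, 8.94 and 8.81, and those of Dctn6 were 8.82, 8.82, 8.84 and 8.92. Sample 17 was lowest for Dctn5 and highest for Dctn6, so these subunits did not share an order.

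The adaptors and regulators that couple motors to cargo were mostly detected. Of 33 listed genes 28 were measured, and 23 of them, or 82.1%, were above background, beside 29 of 35 genes of the transport motors and 37.5% of all genes. Kifap3, the accessory subunit of kinesin-2, had levels of 10.09, 10.17, 10.17 and 10.19 (10.16 ± 0.044). Mapk8ip2, a scaffold bound by kinesin light chains, had 10.44, 10.53, 10.61 and 10.50 (10.52 ± 0.069). Mapk8ip1, the related scaffold, had 8.24, 8.42, 6.98 and 5.93 (7.39 ± 1.16), a drop in samples 15 and 17 like that of Dync1li1.

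None of the mitotic kinesins was above background in the mean. Kif11, which pushes spindle poles apart, had levels of 3.35, 3.56, 3.22 and 3.13 (3.31 ± 0.18). The cytokinesis motors Kif23 and Kif20a had 4.32, 4.21, 4.32 and 4.21 (4.26 ± 0.064) and 3.41, 3.31, 3.41 and 3.41 (3.39 ± 0.053). Kif20b stood at 2.53, 2.57, 2.53 and 2.50 (2.53 ± 0.029), and the chromosome arm motor Kif4 at 4.76, 4.70, 4.68 and 4.77 (4.73 ± 0.043). All of these values lay more than 2 log2 units under the limit. Kif15, a second spindle motor, had 4.80 in samples 11, 13 and 15 and 5.05 in sample 17 (4.86 ± 0.13). Kif22, which binds chromosomes, came nearest to the limit with 6.56, 6.77, 6.80 and 6.77 (6.73 ± 0.11) and no sample above it. That value came from 1 of its 3 probe sets, and the means of the other 2 were 3.58 and 3.11. The other 8 members had means between 2.53 and 4.76, among them Kifc1 and Kifc5b, near-identical genes whose probe sets may share signal.

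Other genes of division were as low. Of 16 spindle and cytokinesis genes 1 was above background, Cit, a kinase of cytokinesis also known from neurons, at 8.51 ± 0.15. Cenpe, Plk1 and Aurka had means of 3.34, 4.41 and 4.21. Of 9 measured markers of cycling cells only Pcna, also a DNA repair factor, passed at 9.19 ± 0.077, while Mki67, Top2a and Ccnb2 had 3.01, 3.72 and 3.05. Absence of a transcript cannot be read from such values, and in whole tissue few dividing cells cannot be told apart from little RNA per cell.

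The mitotic kinesins also shared a promoter element that the choice of genes did not use. The cell cycle homology region, or CHR, is a short element through which the DREAM complex is known to hold cell cycle genes silent in resting cells. RefSeq promoters of assembly GRCm38.p6, from 250 bases before to 50 after the gene start, were matched for 60 of the 73 motor genes. The letters TTTGAA, searched on both strands, were present for 11 of 14 mitotic kinesins, or 78.6%, against 18.5% of 17492 protein-coding genes. They were present for 1 of 11 cargo kinesins, 0 of 7 dynein 1 genes and 2 of 17 ciliary motors. In 9 of the 11 mitotic genes a match began between 60 bases before and 50 after the start, a window chosen after the positions were seen. The spindle and cytokinesis genes held it in 8 of 13 cases. Of these 9 promoters, 7 are given here from 100 bases before to 50 after the start, in the gene's own direction, because they carry the element close to the start. Those of Kifc1 and Kifc5b are left out, since they share a stretch of 68 identical bases and are not independent examples. The counts given for mitotic kinesins include both genes. Capitals mark TTTGAA or its reverse complement TTCAAA, and CCAAT or its reverse complement ATTGG, the box of the factor NF-Y.

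Kif11, chr19:37376282-37376431, plus strand: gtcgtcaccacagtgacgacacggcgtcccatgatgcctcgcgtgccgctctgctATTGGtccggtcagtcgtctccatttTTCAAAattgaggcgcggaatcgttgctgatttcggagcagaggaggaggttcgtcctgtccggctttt
Kif23, chr9:61946750-61946899, minus strand: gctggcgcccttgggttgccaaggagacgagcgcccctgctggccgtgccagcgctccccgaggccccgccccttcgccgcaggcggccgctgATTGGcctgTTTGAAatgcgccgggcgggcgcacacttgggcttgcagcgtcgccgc
Kif20b, chr19:34922258-34922407, plus strand: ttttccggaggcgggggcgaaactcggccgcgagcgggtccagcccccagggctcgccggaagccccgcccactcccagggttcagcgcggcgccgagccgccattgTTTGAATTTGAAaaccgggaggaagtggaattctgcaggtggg
Kif4, chrX:100625965-100626114, plus strand: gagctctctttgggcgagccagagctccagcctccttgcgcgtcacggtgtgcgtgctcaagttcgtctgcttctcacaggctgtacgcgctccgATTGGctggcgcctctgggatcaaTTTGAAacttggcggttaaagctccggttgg
Kif15, chr9:122950981-122951130, plus strand: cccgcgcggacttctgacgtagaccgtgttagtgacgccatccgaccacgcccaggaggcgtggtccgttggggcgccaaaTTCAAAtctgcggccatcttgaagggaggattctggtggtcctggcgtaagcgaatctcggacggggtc
Kif22, chr7:127042371-127042520, minus strand: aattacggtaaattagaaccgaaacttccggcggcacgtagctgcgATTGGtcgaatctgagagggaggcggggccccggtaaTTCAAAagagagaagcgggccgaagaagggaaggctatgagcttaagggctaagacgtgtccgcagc
Kif18b, chr11:102925075-102925224, minus strand: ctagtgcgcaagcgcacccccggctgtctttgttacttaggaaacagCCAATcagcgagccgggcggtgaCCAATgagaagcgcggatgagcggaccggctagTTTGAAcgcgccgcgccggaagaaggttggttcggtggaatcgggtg

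In Kif11, Kif23, Kif4, Kif22 and Kif18b the CCAAT box stands before the CHR letters, that is in 5 of the 7. In Kif20b the CHR letters occur in tandem and in Kif15 once near the start, both with no CCAAT in the 300 bases searched. The CCAAT box was found in 10 of 14 mitotic kinesins, or 71.4%, against 42.3% of all protein-coding genes, and 8 held both elements. A match of letters is a description and does not show that a factor binds there.

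**Figure D3:**
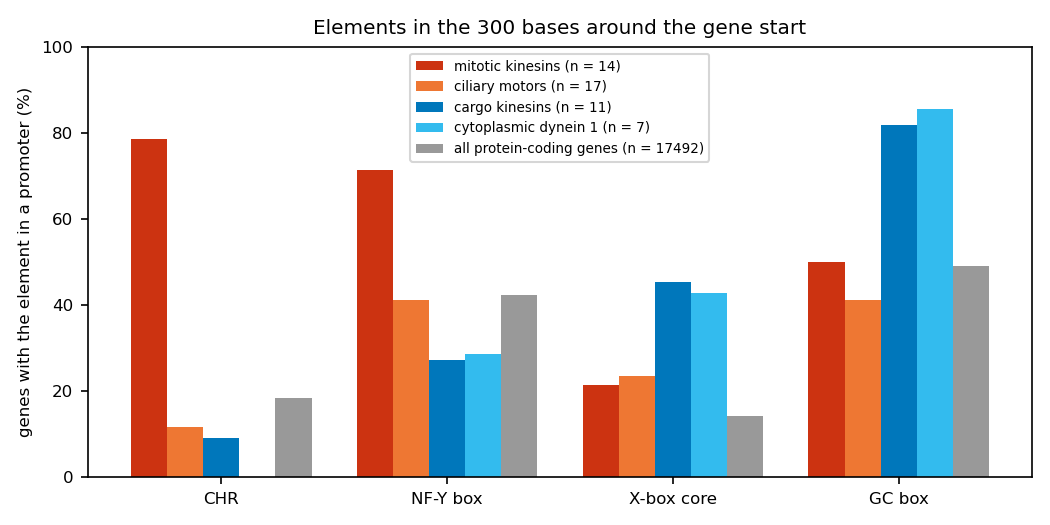
Share of genes with each promoter element, in percent of the genes with a RefSeq promoter, for 4 motor classes and for all protein-coding genes. The CHR bar is 78.6% for mitotic kinesins against 18.5% for all genes, and the GC box bars are 81.8% for cargo kinesins and 85.7% for dynein 1 genes.

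Among ciliary motors the transport dynein lay above the background limit, and the heavy and intermediate chains of axonemal dynein did not. The margin of the transport dynein was small, since Krt10 and Lct, listed genes not expected in hippocampus, had 7.44 and 7.84. With the limit at the highest listed gene, 7.84, 0 ciliary motors passed. Dync2h1, the heavy chain of the dynein that returns material inside cilia, was above background at 7.51, 7.41, 7.40 and 7.44 (7.44 ± 0.050) and is named after its value was seen. Its light intermediate chain Dync2li1 was at the limit, with 6.68, 6.997, 6.997 and 7.25 (6.98 ± 0.23), and sample 11 was under it. All 12 axonemal heavy and intermediate chain genes among the members were under background. Dnah1 of the inner arms had 5.87, 6.17, 5.85 and 6.04 (5.99 ± 0.15), and Dnah2 had 3.93 in sample 11 and 3.83 in the others (3.85 ± 0.054). Dnah5 of the outer arms had 3.47, 3.17, 3.20 and 3.20 (3.26 ± 0.14). Dnah6 had 4.38, 4.47, 4.38 and 4.38 (4.40 ± 0.045), Dnah7a had 4.19, 4.18, 4.19 and 4.19 (4.19 ± 0.0032), and Dnah8 had 4.03, 3.76, 3.94 and 3.77 (3.88 ± 0.13). No sample brought any of them near the limit. The other 10 members had means between 3.27 and 6.13.

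Other ciliary genes were detected in part. Of 25 genes of intraflagellar transport and the axoneme, 7 were above background, or 28%, against 37.5% of all genes. Among the 11 genes of intraflagellar transport 5 were above, with Ift20 at 7.69 ± 0.086 and Ift57 at 7.85 ± 0.13, while Ift52 stood at 6.70 ± 0.12 under the limit. Among the 14 genes of the axoneme 2 were above, the dynein light chain genes Dnal1 at 8.99 ± 0.026 and Dnal4 at 7.90 ± 0.12, which are named after their values were seen. These 2 light chain genes of axonemal dynein were thus above the limit where the heavy and intermediate chain genes were not. Dnali1, a light intermediate chain gene of axonemal dynein in the same list, was under it at 3.92 ± 0.12. None of the 10 ependymal markers was above background, with Foxj1 at 3.83, Ccdc153 at 4.41 and Tmem212 at 4.29. The ependymal list was nevertheless higher in sample 13, with deviations of -0.085, 0.25, -0.13 and -0.032 and a summed level between 47.3 and 51.1 over the 4 samples. The 18 ciliary motors deviated by -0.0098, -0.0012, 0.016 and -0.0046 and were not highest in sample 13. With 16 of them under background, these deviations could hardly follow the cell content of a sample, and no conclusion is drawn from them. The part of ependymal cells in the ciliary values was not tested. The letters GTTGCC, the core of the X-box bound by ciliary RFX factors, were in the promoters of 4 of 17 ciliary motors, or 23.5%, against 14.3% of protein-coding genes. They were more frequent in cargo kinesins, at 5 of 11. The looser form GTTNCC, which includes it, was in 11 of 17 ciliary motors and in 49.1% of protein-coding genes.

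GC boxes were frequent in the promoters of most transport classes, dynactin apart. The letters GGGCGG, bound by Sp factors, were present for 9 of 11 cargo kinesins, 6 of 7 dynein 1 genes and 3 of 3 light chains, against 49.2% of protein-coding genes and 7 of 17 ciliary motors. They were present for 1 of 4 dynactin genes and 7 of 14 mitotic kinesins. The observed over expected ratio of CG dinucleotides had a median of 0.84 in cargo kinesins and 0.91 in mitotic kinesins, 0.56 in ciliary motors and 0.61 in all protein-coding genes. The letters TATAAA were present for 5 of 60 motor genes, or 8.33%, against 14.8%. Cargo adaptors, mostly above background, had a GC box in 25 of 29 cases, and cycling cell markers, mostly under it, in 8 of 9.

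Among the other kinesin genes only Kif2a was above background. Kif2a, which takes microtubules apart and limits axon branches, had levels of 8.59, 8.57, 8.49 and 8.59 (8.56 ± 0.046). Kif26a and Kif26b, kinesins without motor activity, had 4.66, 4.67, 4.66 and 4.66 (4.66 ± 0.0094) and 5.44, 5.44, 5.44 and 5.50 (5.46 ± 0.031). Kif12 held 4.07 in all samples, and Kif28 had 2.66 in samples 11, 15 and 17 and 2.86 in sample 13 (2.71 ± 0.10).

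Within the group, 2 tests of variation between samples called no motor gene, and the first of them had little power. With limma, 0 of 54 motor probe sets above background passed the test of spread at an adjusted p of 0.05, and 0 of all 9524 probe sets did, or 0%. The smallest adjusted p over all probe sets was 0.892. At an unadjusted p under 0.05 there were 7 motor probe sets and 291 over all. On its 3 and 2.30 degrees of freedom this test could hardly call a probe set. A Kif1a probe set with a 4.25-fold span had an unadjusted p of 0.00398 and an adjusted p of 0.892 by limma. A second test, on the 17 motor genes that at least 2 probe sets read above background, asked whether the probe sets of a gene moved together, with error variances squeezed by limma. It called 0 of 17 motor genes, against 41 of 1921 genes, or 2.13%. Its smallest motor p belonged to Kif5b, with an unadjusted p of 0.0467 and an adjusted p of 0.219 by limma's squeezed variances. Counts of 0 do not show that the samples were alike.

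Most motor probe sets were steady, and a few were far more variable than others of the same gene. The median SD was 0.070 over the 54 motor probe sets above background and 0.085 over all such probe sets, and 18 motor probe sets had an SD under 0.05, or 33.3% against 23.8%. An SD over 0.25, a threshold set after the values were seen, was reached by 8 motor probe sets, or 14.8%, against 4.51% of all probe sets above background. These 8 belong to 8 genes. For 7 of the genes, other probe sets above background had SDs of 0.025 to 0.096, over 10 probe sets in all.

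Kif1a shows the contrast most clearly. Its second probe set had levels of 8.52, 8.43, 7.12 and 6.43 (SD 1.02), a 4.25-fold span, where the first stayed between 7.64 and 7.74. In Kif3a the variable probe set had 8.03, 7.75, 7.16 and 7.22 (SD 0.42), and the other 3 had SDs of 0.028 to 0.071. In Kif2a it had 8.41, 8.29, 7.80 and 7.79 (SD 0.32), against an SD of 0.046 for the other. The same gene thus looked lower in samples 15 and 17 or steady, depending on the probe set. Kif1b had 10.43, 10.38, 10.07 and 9.84 by its variable probe set (SD 0.28). Kif21a stood at 8.56, 8.52, 8.56 and 8.58 by its steady one (SD 0.025), and Kif5b kept SDs of 0.096 and 0.080 by its other probe sets above background. A Kif5b probe set under background had 6.71, 6.22, 5.94 and 5.95 (SD 0.36), also lower in samples 15 and 17. Kif5c was an exception in its order, with 9.07, 8.96, 9.24 and 8.40 (SD 0.36), low in sample 17 only.

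The direction was shared with the 5' signal of Gapdh. In 7 of the 8 variable probe sets, samples 15 and 17 both lay under samples 11 and 13. The same order was found in 270 of the 430 probe sets of the whole array that were above background with an SD over 0.25, so it was common among variable probe sets in general. Over all 54 motor probe sets above background that order was found in 16, or 29.6%, against 11.2% of all probe sets above background. The opposite order, samples 15 and 17 both above, was found in 13 motor probe sets, or 24.1%, against 31% of all. The 5' probe set of Gapdh had 11.69, 11.71, 9.67 and 8.52, while its 3' probe set had 12.31, 12.32, 12.31 and 12.31. The part of the 5' signal in the motor probe sets was not tested, and where each probe set lies in its transcript was not analysed here.

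**Figure D4:**
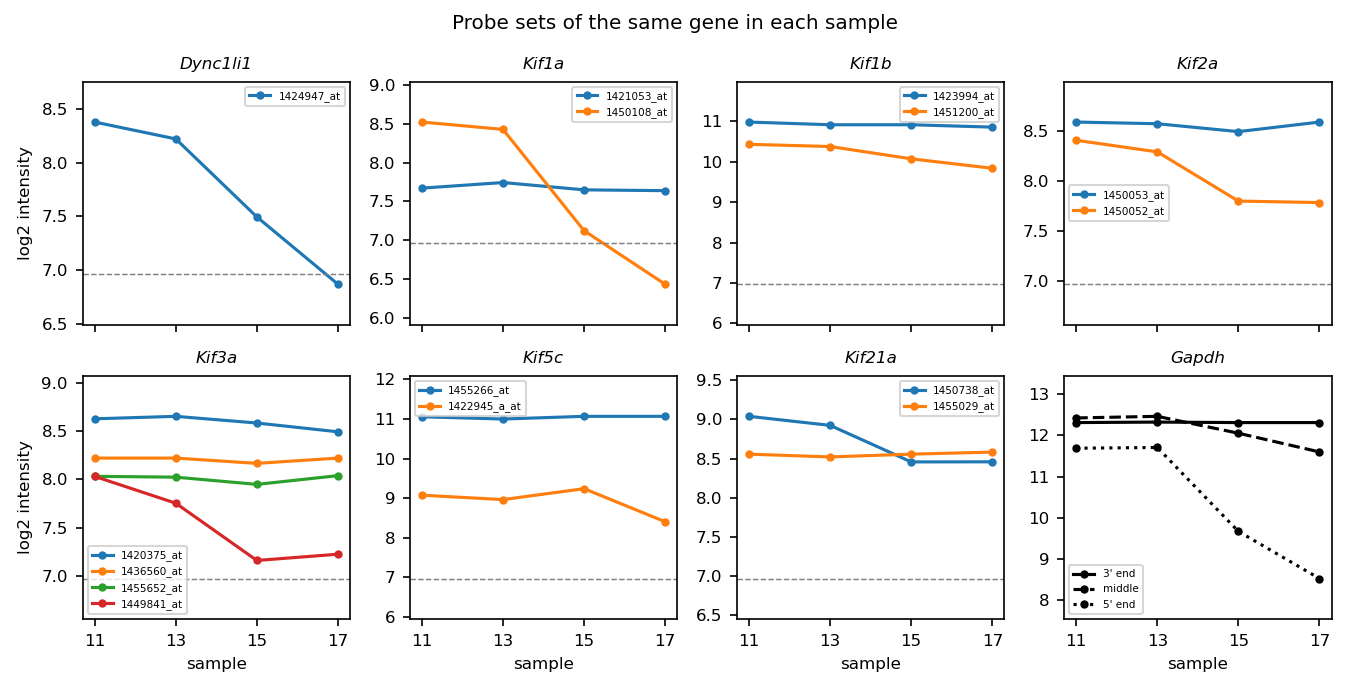
Log2 intensity in samples 11, 13, 15 and 17 of each probe set above background of 7 motor genes with a variable probe set, and of the 3 Gapdh control probe sets in the last panel; points are single arrays, joined by lines to follow a probe set, and the grey dashed line is the background limit. Kif1a, Kif2a and Kif3a each have a probe set that is lower in samples 15 and 17 beside others that are level, and the Gapdh 5' line falls to 8.52 in sample 17 while the 3' line stays at 12.31.

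**Figure D5:**
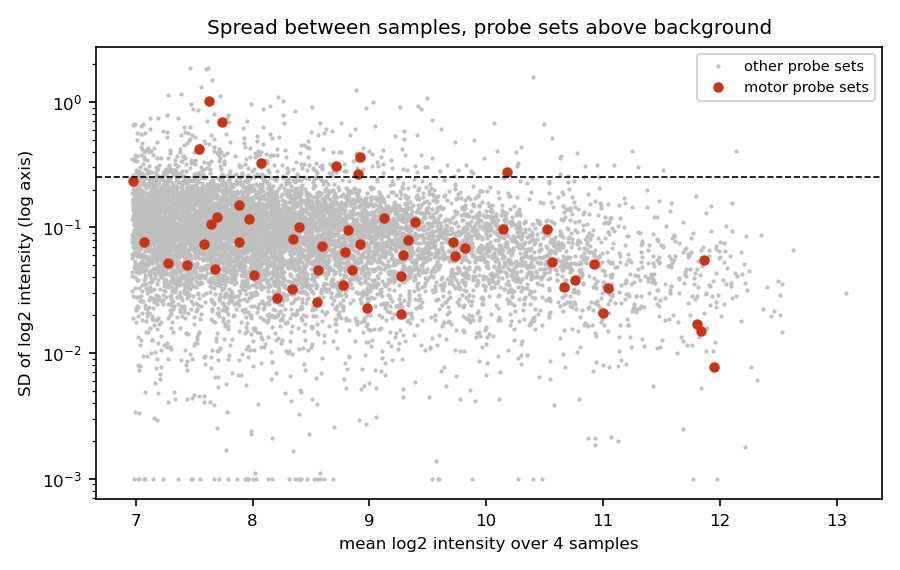
SD of log2 intensity over the 4 samples on a log axis against the mean level, for the 54 motor probe sets and all others above background, with SDs under 0.001 drawn at 0.001 and the dashed line at 0.25. The motor probe sets span the cloud of the others, and 8 of them lie above the line.

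Probe sets of the same gene also disagreed in level. Of 43 motor genes with 2 or more probe sets, 9 had all of them above background, 19 had none and 15 were split. Kif5a, with a mean of 11.80 by its first probe set, had means of 6.34 and 3.27 by the other 2. Dync1h1 had 10.76 and 3.95, and Kif1b, with 7 probe sets, had 2 above background.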

How the data were processed

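Per the submitters' processing notes, the authors made the deposited log2 intensities per probe set with RMA; its software, version and settings stay unstated in those notes. Per the labels' protocols, DNase-treated total RNA was amplified with biotin labelling. No other column of values was present.

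The members, classes, lists and tests were chosen with earlier results of these data known. Of 45101 probe sets, 34958 had 1 symbol; 34754 of these were matched to RefSeq (GRCm38.p6) for current symbols. Background was the 95th percentile of 45 measured of 52 listed genes of other tissues. The test of spread used limma (intercept, trend, robust, with residual over prior variance as F on 3 and 2.30 degrees of freedom). The test of agreement used the mean square between samples over that of probe set by sample. Both used Benjamini-Hochberg adjustment at 0.05 over all features. Both were run on simulated data where all features but the planted ones shared a single SD, unlike the real arrays. Probe sets of a gene can share probes. Named genes are the first 6 measured per class, the 8 largest SDs above background, up to 10 called and those within 0.3 of the limit, and of the other lists the first 3; a name outside this rule was chosen after its value was seen. Besides 6 promoter motifs, longer NRF1 and RE1 motifs were searched and are not reported. Alternatives covered the limit, dim probe sets, the probe set per gene, normalization, variance prior and each sample. Tests ran in limma 3.58.1 under R 4.3.3, and figures were drawn with matplotlib 3.10.9 in Python 3.11.15.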

Additional observations from a re-analysis of the deposited data

Results flagged for a closer look

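In 15 of the 45 named genes the lowest or highest sample stood far from the other 3, judged by its gap over the whole range. All 15 held the same value in at least 2 samples, as did 36 of the 73 motor genes, and 11 of the 15 were under background. Equal values among the other samples raise this ratio by themselves. The usual rate of about 1 in 20 is for values without ties, so no excess can be read from the count. It was not made over all genes. Above background, Kif5c was low in sample 13 (10.997), Dync1li2 in sample 17 (9.24), Dctn3 in sample 11 (9.23) and Dctn5 in sample 17 (8.81), with gaps of 0.058, 0.041, 0.21 and 0.13 to the nearest other sample. Among mitotic kinesins, Kif20a was low in sample 13 (3.31), Kif15 high in sample 17 (5.05) and Kif22 low in sample 11 (6.56). Among axonemal dyneins, Dnah2 (3.93) and Dnah5 (3.47) were high in sample 11, Dnah6 was high in sample 13 (4.47) and Dnah7a low there (4.18). The light chain Klc3 was high in sample 11 (4.88), Kif26a (4.67) and Kif28 (2.86) were high in sample 13, and Kif26b was high in sample 17 (5.50). No flagged value belonged to sample 15.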

How the results depend on the processing

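The count of motor genes above background, 32, lay between 23 and 36 over 10 alternatives. The 0 calls of both tests were unchanged in all 7 and 8 alternatives, which is no sign of robustness. The test of spread called 0 probe sets of the whole array in each of its 7. The agreement test called so few of all genes, 2.13% in the main setting, that 0 of 17 motor genes could hardly change. At the 90th percentile 1 mitotic kinesin passed. At the highest background gene, 7.84, there were 1 light chain, 0 ciliary motors and 25 motor genes. By the lowest of the 4 values 1 ciliary motor remained above the limit, and leaving out 1 sample gave 1 to 2, with 1 without sample 13 and without sample 17. With the median over probe sets there were 7 cargo kinesins, 1 light chain and 0 other kinesin genes. That choice moved the level of 25 of 45 named genes by more than 1 SD, against 1 for quantile normalization again. The medians of the 4 arrays were already 4.71, 4.70, 4.70 and 4.67, so repeating the normalization could move little and is a weak check. Median centring leaves the mean over the 4 samples unchanged, so it could move none and is no check of these levels. Calls of the agreement test over all genes, 41, were 47 without squeezing, 33 after quantile normalization, 13 of 9012 with no filter on dim probe sets and 3 to 9 with 1 sample left out. The omission of samples 15 and 17 together was added after the values were seen, and gave 12 such calls. No paired analysis was possible because the samples form a single group.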

Other observations

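Exactly equal values were common among the motor genes, as on the whole array. Of 162 motor probe sets, 77 held the same value in at least 2 samples, or 47.5%, against 24009 of 45101 probe sets on the array, or 53.2%, and 9 motor probe sets held it in all 4. The 648 values of these probe sets comprised 494 distinct numbers, and over all probe sets there were 97440 distinct numbers among 180404 values. Of the genes represented by their highest probe set, equal values were present in 9 of 32 above background and 27 of 41 under it. The SD of 0 for Kif12, Kif24, Kifc5b and Dynlt1f goes with such repeated numbers, and how they arose was not tested.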
